A study of Mus musculus with 13 samples.

Results

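The H3K27ac peak lists of 2 mouse cultures at day 9 of reprogramming were compared, one with a catalytically dead histone deacetylase 3 (HDAC3-YF) and one with a FLAG control. The FLAG list held 16428 peaks and the HDAC3-YF list 15241, which makes 31669 of the 164043 peaks in the 12 deposited lists of the series. Both cultures were mouse embryonic fibroblasts (MEFs) of the strain C57BL/6J-OG2 given OSKM, the reprogramming set made up of OCT4, SOX2, KLF4 and c-MYC, and were crosslinked for chromatin immunoprecipitation followed by sequencing (ChIP-seq). The labels call the extra construct a transfection, and the protocol describes viral supernatants. HDAC3-YF is the Y298F mutant, labelled as lacking deacetylase activity, and the cultures also kept their own Hdac3 gene. The labels call these cells intermediates on the way to pluripotency. MEFs of the same strain and embryonic stem cells (ESCs) of C57BL/6J, both at day 0 without OSKM, and OSKM cultures with FLAG or HDAC3-YF at days 5 and 13 served as references. The MEF and ESC lists were longer than those of day 9, with 26591 and 25499 H3K27ac peaks. Every group was 1 library, so there is no spread between cultures, no test between the arms was made, and every 95% interval below covers the counting of regions only. Whether a region lost acetylation in each cell or was present in fewer cells of the culture cannot be told apart.

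Histone deacetylases remove acetyl groups from histone tails. HDAC3 does so as the catalytic subunit of the complexes formed by the co-repressors NCoR and SMRT, which bind and activate it. Acetylation of lysine 27 of histone H3 (H3K27ac) marks active promoters and enhancers, and during reprogramming the enhancers of the fibroblast state are shut while those of the pluripotent state are opened.

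Each deposited peak was an interval of 200 bp. Within a list the starts on a chromosome lay on a grid of 50 bp, neighbouring peaks were at least 300 bp apart, and the median gap was 40.7 kb for FLAG and 44 kb for HDAC3-YF, so an acetylated region was mostly given as 1 interval. Since 0 intervals were identical between the arms, peaks were sorted into 3 classes. Overlapping peaks share at least 1 bp with a peak of the other arm, displaced peaks do not but have a centre of the other arm within 1 kb, and separate peaks have none. How deeply each library was sequenced is not known here. The authors' score ran from 6.71 to a ceiling of 200 for FLAG and from 6.69 to 200 for HDAC3-YF, its scale is not stated, and it was used only to rank peaks within a list.

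Most acetylated regions were common to both arms. Overlapping peaks numbered 10316, which is 62.8% of the FLAG list and 67.7% of the HDAC3-YF list, and their centres were a median of 66 bp apart. The remainder were 6112 FLAG peaks (37.2%) and 4925 HDAC3-YF peaks (32.3%). Of these, 2196 and 2212 were displaced. The separate peaks numbered 3916 with FLAG (23.8%) and 2713 with HDAC3-YF (17.8%). These counts follow the length of the lists and their thresholds, and the separate peaks were the weak ones of each list. The median score was 49.8 for overlapping and 8.98 for separate FLAG peaks, and 45.8 and 8.80 in the HDAC3-YF list.

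**Figure D1:**
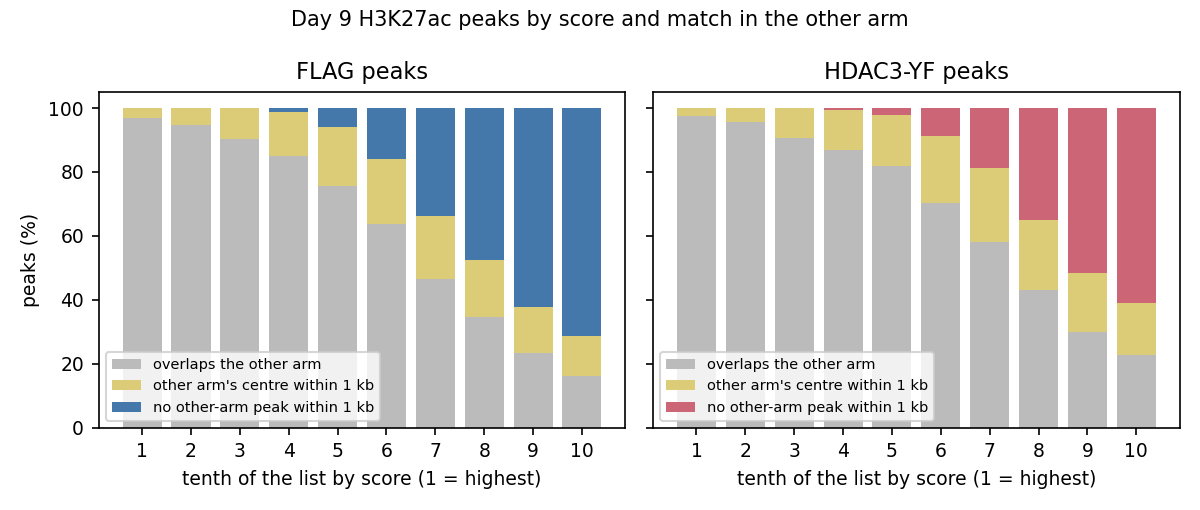
Each day 9 list is split into 10 equal bins by the authors' score (x axis, 1 = highest), and the stacked bars give the percentage of peaks that overlapped the other arm, were displaced or were separate. The separate class grew from 0% of FLAG and 0.131% of HDAC3-YF peaks in the highest bin to 71.4% and 60.8% in the lowest.

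The strongest regions were almost never separate. In the highest 10% by score 97.0% of FLAG and 97.4% of HDAC3-YF peaks overlapped the other arm. A score of 200 was reached by 1685 FLAG and 1584 HDAC3-YF peaks, and 0 and 2 of those were separate. The 1 kb limit itself is sharp at a few loci. At Gapdh, a glycolytic enzyme, the FLAG peak and the HDAC3-YF peak were 1.001 kb apart and both counted as separate. At Pdlim7, an actin-associated protein, the distance was 1.004 kb. The separate HDAC3-YF peaks at Gadd45g, Xpa and Patz1 had a FLAG peak 1.246, 1.278 and 1.879 kb away.

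Most separate peaks lay away from promoters, as did weak peaks in general. From the highest to the lowest of the 10 score bins the share of all peaks at a start site went from 79.2% to 15.8% with FLAG and from 80.4% to 16.3% with HDAC3-YF. Start sites of transcription were listed for 17491 of 21883 protein-coding genes (none on chromosome 18, which is left out of start-site counts). A peak away from the listed start sites can therefore lie at an unlisted one. Within 1 kb of a listed start site lay 63.0% of the overlapping FLAG peaks (62.1 to 64.0%) and 16.7% of the separate ones (15.5 to 17.9%). For HDAC3-YF the shares were 63.1% and 16.5% (15.1 to 17.9%). The median distance of separate peaks to a start site was 25.8 kb with FLAG and 23.4 kb with HDAC3-YF, against 0.344 and 0.340 kb for overlapping peaks. Of the separate peaks, 47.5% (FLAG) and 47.8% (HDAC3-YF) lay inside a protein-coding gene away from its ends, and 29.7% and 29.1% lay outside such genes. These shares of the 2 arms lay within each other's intervals. Measured from either annotated end of a gene, 24.4% of all non-overlapping FLAG peaks (23.4 to 25.5%) and 26.0% of those with HDAC3-YF (24.8 to 27.3%) lay within 1 kb. These shares were 52.4% and 56.4% in the top 50% of each list by score.

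**Figure D2:**
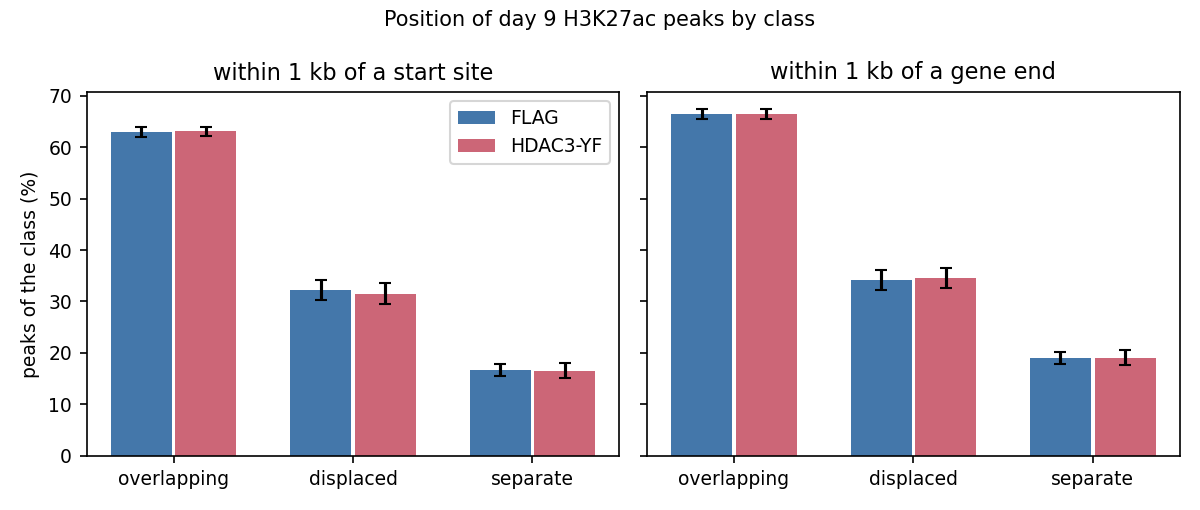
Bars give the percentage of day 9 peaks of each class that lay within 1 kb of a start site (left) or of either gene end (right), with 95% Wilson intervals. The start-site share was 63.0% of overlapping and 16.7% of separate FLAG peaks, and 63.1% and 16.5% with HDAC3-YF.

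At promoters the arms differed at few genes. A peak within 1 kb of a start site was present in both arms at 7595 genes, in FLAG alone at 625 (3.57%), in HDAC3-YF alone at 432 (2.47%) and in neither at 8839. These classes rest on peak centres, so an overlapping or displaced peak near the 1 kb limit can place a gene in a single-arm class. Tubb5 counted as HDAC3-YF alone with 3 locus peaks in each arm, none of them separate. Promoters with a peak in 1 arm alone had fewer CpG dinucleotides than those with a peak in both, with a median of 17 per window of 300 bases in either single-arm class against 23 in both and 4 in neither. This count used 1 RefSeq window per gene, the first in genome order. The promoters below are printed as examples of genes with a peak in 1 arm alone: Mrpl39, a mitochondrial ribosomal protein, is the one that the rule for sequences named, and Synj2, a phosphoinositide phosphatase, Xpa, a DNA repair factor, and Elf3, an epithelial transcription factor, were chosen after their values were seen. Each is the 250 bases upstream of the start site from RefSeq on GRCm38.p6, 5′ to 3′ on the gene's strand, with CpG dinucleotides in capitals.
Mrpl39: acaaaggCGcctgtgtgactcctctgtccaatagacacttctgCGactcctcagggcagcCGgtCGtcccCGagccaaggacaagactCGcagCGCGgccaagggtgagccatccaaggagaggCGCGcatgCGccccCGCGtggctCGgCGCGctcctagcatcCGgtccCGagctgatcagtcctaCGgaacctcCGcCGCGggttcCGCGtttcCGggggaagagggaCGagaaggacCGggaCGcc
Synj2: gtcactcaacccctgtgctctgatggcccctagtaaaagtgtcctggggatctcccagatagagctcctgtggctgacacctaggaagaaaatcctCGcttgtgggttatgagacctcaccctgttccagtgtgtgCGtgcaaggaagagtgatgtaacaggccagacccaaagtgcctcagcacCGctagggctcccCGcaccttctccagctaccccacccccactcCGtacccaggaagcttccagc
Xpa: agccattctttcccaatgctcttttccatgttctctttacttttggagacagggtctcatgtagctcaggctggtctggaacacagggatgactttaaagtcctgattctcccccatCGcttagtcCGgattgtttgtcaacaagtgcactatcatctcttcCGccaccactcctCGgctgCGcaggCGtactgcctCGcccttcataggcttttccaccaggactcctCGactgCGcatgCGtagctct
Elf3: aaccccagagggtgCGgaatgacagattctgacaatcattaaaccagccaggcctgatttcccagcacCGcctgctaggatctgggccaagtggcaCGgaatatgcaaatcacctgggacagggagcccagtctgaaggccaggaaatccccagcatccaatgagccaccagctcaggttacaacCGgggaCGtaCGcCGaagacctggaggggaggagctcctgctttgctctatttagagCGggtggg
The Mrpl39 stretch (chr16:84735245-84735494, minus strand) held 28 CpG in its 250 bases, so it does not share the lower CpG count of the single-arm classes, and the separate FLAG peak there (chr16:84735315-84735514) scored 43.6. The Synj2 stretch (chr17:5975330-5975579, plus strand) held 5, and its FLAG peak scored 38.8. The Xpa stretch (chr4:46196312-46196561, minus strand) held 10, and its HDAC3-YF peak scored 40.7, with a FLAG peak 1.278 kb away. The Elf3 stretch (chr1:135258473-135258722, minus strand) held 8, and its HDAC3-YF peak scored 21.6 where FLAG had none. Mrpl39 had a peak within 1 kb in MEFs, in ESCs and in all 4 libraries of days 5 and 13, so that the FLAG and HDAC3-YF lists differed there at day 9 alone. Elf3 had one in ESCs, none in MEFs, one with FLAG and none with HDAC3-YF at day 5, and one in both arms at day 13. The day 5 lists thus stood the other way round from day 9 at Elf3. Synj2 had one in MEFs, none in ESCs, one with FLAG alone at day 5 and one in both arms at day 13. Xpa had one in MEFs, in ESCs and in both arms at day 5 and none at day 13.

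Short motifs were counted in the same windows on both strands, as letters and not as bound sites. The AP-1 motif TGANTCA was in 6.24% of FLAG-alone (4.60 to 8.42%), 5.56% of HDAC3-YF-alone (3.76 to 8.13%), 3.98% of both-arm and 7.05% of all promoters. The KLF/SP box GGGCGG was in 61.6% and 58.1% of the single-arm classes, in 69.3% of both-arm and in 45.9% of all promoters. The shares of the single-arm classes lay within each other's intervals for both motifs.

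The separate peaks of the arms differed in where they stood between the fibroblast and the pluripotent state. Separate FLAG peaks more often had H3K27ac in MEFs alone, and separate HDAC3-YF peaks more often in ESCs alone. A MEF peak and no ESC peak lay within 1 kb of 31.0% of separate FLAG peaks (29.5 to 32.4%) and of 17.7% of separate HDAC3-YF peaks (16.3 to 19.2%). An ESC peak and no MEF peak lay near 9.40% (8.52 to 10.3%) and 20.3% (18.9 to 21.9%). The shares with both were 16.7% and 19.2%, and those with neither were 43.0% and 42.8%. The same order held away from start sites, with MEF alone at 32.2% and 18% and ESC alone at 9.48% and 22.1%. Over all non-overlapping peaks, displaced ones included, 35.4% with FLAG and 28.7% with HDAC3-YF overlapped a MEF peak, and 21.8% and 27.3% an ESC peak. By overlap rather than distance, 31.2% of separate FLAG and 23.2% of separate HDAC3-YF peaks met a MEF peak, and 16.8% and 23.9% an ESC peak. The ESC and MEF labels name different strains, so strain and cell type cannot be told apart there.

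**Figure D3:**
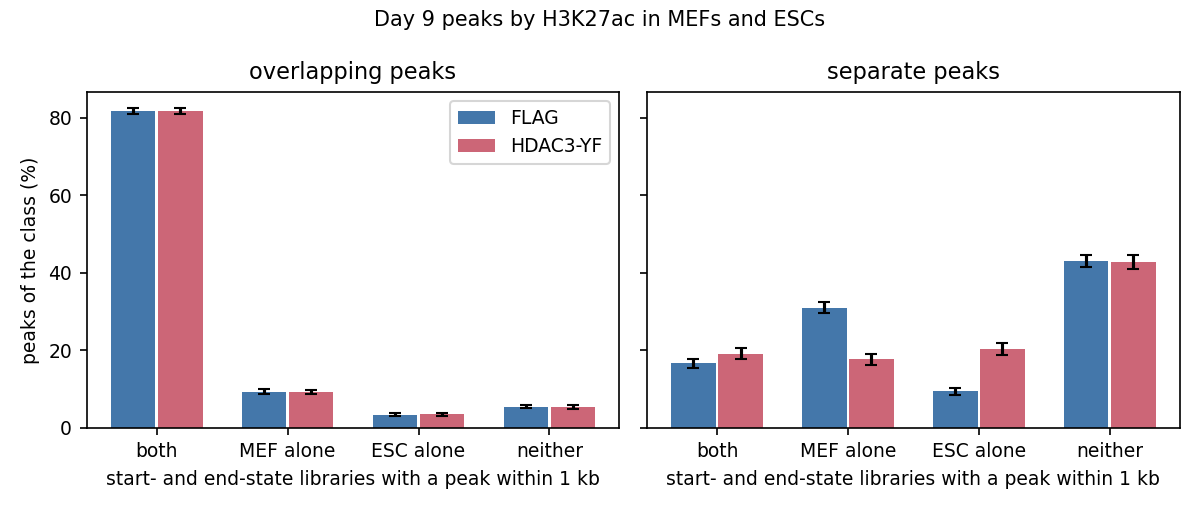
Bars give the percentage of overlapping (left) and separate (right) day 9 peaks that had an H3K27ac peak within 1 kb in both MEFs and ESCs, in 1 of them or in neither, with 95% Wilson intervals. The arms coincide for overlapping peaks, and among separate peaks FLAG is higher for MEF alone (31.0% against 17.7%) and HDAC3-YF for ESC alone (20.3% against 9.40%).

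The libraries of days 5 and 13 were not used to sort the day 9 peaks. Their lists held 15645 FLAG and 16944 HDAC3-YF peaks at day 5, and 15394 and 14251 at day 13. Regions separate to FLAG at day 9 were also more often acetylated with FLAG at day 13. For regions separate to HDAC3-YF the day 13 difference was small, and its sign depended on the length of the lists. Of the 3916 separate FLAG peaks, 34.8% had a FLAG peak and 21.0% an HDAC3-YF peak within 1 kb at day 13, a difference (HDAC3-YF minus FLAG) of -13.8 points (-15.4 to -12.3). Of the 2713 separate HDAC3-YF peaks, 22.7% had a FLAG peak and 21.2% an HDAC3-YF peak at day 13, a difference of -1.51 points (-3.24 to 0.217). The overlapping regions also differed at day 13, by -4.29 points, so the FLAG list of that day met more of these regions in general. With the same number of peaks from both day 13 lists the differences became -10.8 points (-12.3 to -9.21) and 1.73 points (0.0317 to 3.43). At day 5 separate FLAG peaks differed by 1.07 points (-0.541 to 2.69). Of the separate HDAC3-YF peaks 26.3% had a FLAG peak and 34.2% an HDAC3-YF peak at day 5, a difference of 7.96 points (6.02 to 9.91), or 4.09 with equal numbers. Counted by overlap over all non-overlapping peaks, the day 13 differences were -9.18 points (-10.4 to -7.98) for FLAG and -2.38 (-3.67 to -1.08) for HDAC3-YF regions. The day 5 differences were then 0.425 points (-0.887 to 1.74) and 1.48 points (0.0730 to 2.89). The last of these became -0.244 with equal numbers of day 5 peaks.

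**Figure D4:**
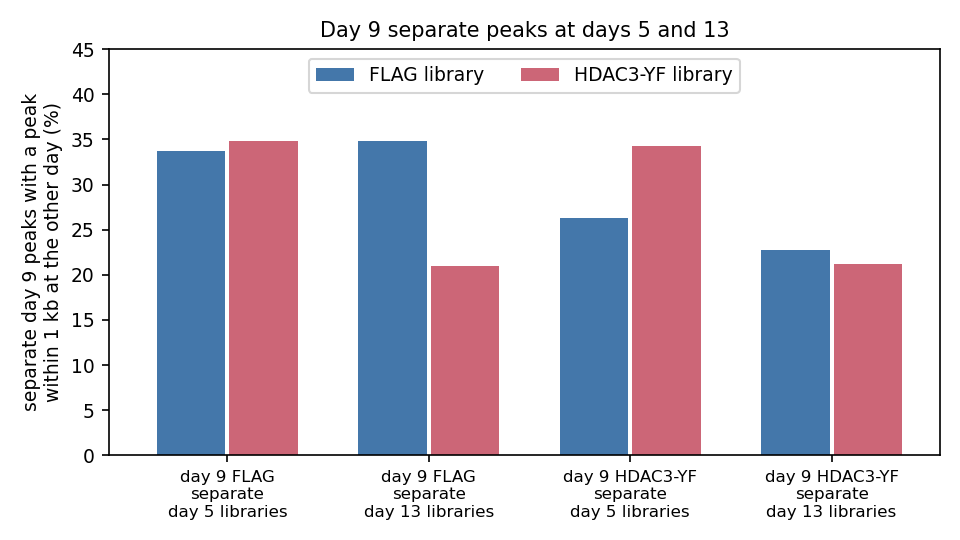
Bars give the percentage of separate day 9 peaks (FLAG left, HDAC3-YF right) that had a peak within 1 kb in the FLAG and HDAC3-YF libraries of day 5 and day 13. The largest gap is at day 13 for separate FLAG peaks, 34.8% against 21.0%.

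The day 13 gap at FLAG regions was largest where MEFs alone were acetylated. Of the 1212 separate FLAG peaks with a MEF peak and no ESC peak nearby, 39.4% had a FLAG peak and 18.1% an HDAC3-YF peak at day 13, a difference of -21.4 points (-24.4 to -18.4). For the 552 separate HDAC3-YF peaks near ESC peaks alone the day 13 difference was 4.35 points (0.347 to 8.35), and at day 5 it was 9.60 points (5.31 to 13.9). Full recurrence was rare. Of the separate FLAG peaks 117 (2.99%) were met by FLAG and not by HDAC3-YF at both other days, and 34 of the separate HDAC3-YF peaks (1.25%) showed the same in their arm. No peak of the 7 other H3K27ac lists lay within 1 kb of 772 separate FLAG peaks (19.7%) and 621 separate HDAC3-YF peaks (22.9%).

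NCoR and SMRT were mapped in OSKM cultures at day 9 and their peaks merge into 5972 co-repressor sites. Few separate peaks lay at one. Over all non-overlapping peaks 3.93% with FLAG and 4.31% with HDAC3-YF overlapped a site, against 17.4% and 18.6% of all peaks in the 2 lists. Among non-overlapping peaks in the top 50% of each list by score the shares were 12.4% and 13.2%. What part peak strength has in this contrast was not tested. Away from listed start sites, a co-repressor site was within 1 kb of 22.5% of overlapping FLAG peaks and of 2.24% of the separate peaks of either arm. Peaks there can lie at unlisted starts. A gene end other than a listed start was within 1 kb of 12.0% of overlapping and 6.08% of separate FLAG peaks. What part such peaks have in the contrast was not tested. At start sites a co-repressor site was near 51.0% of overlapping FLAG peaks, 15.0% (12.4 to 18%) of separate FLAG peaks and 11.3% (8.69 to 14.7%) of separate HDAC3-YF peaks.

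By gene, peaks were counted over the gene and 20 kb beyond both of its ends, and a peak between neighbours counts for each of them. Of 21883 protein-coding genes 3277 (15.0%) had fewer peaks with HDAC3-YF and 2346 (10.7%) had more. At least 2 fewer were found at 606 genes (2.77%) and at least 2 more at 346 (1.58%), and single loci ranged from 8 fewer to 4 more. With equal numbers of peaks from both lists the order turned, with 371 genes at least 2 lower and 442 at least 2 higher. Of the 14157 genes with a peak in either arm, 23.1% were lower and 16.6% higher. Genes with more peaks in MEFs than in ESCs were lower more often than genes with the opposite bias. Of the 407 genes with at least 5 more peaks in MEFs than in ESCs, 50.6% were lower and 17.0% higher with HDAC3-YF, and their summed peaks were 1438 with FLAG and 1132 with HDAC3-YF. Per gene the mean difference was -0.752 peaks, where the day 5 lists gave 0.231 and the day 13 lists -0.880. Of the 379 genes with at least 5 more in ESCs, 16.9% were lower and 25.1% higher, with 756 and 819 peaks, and a mean difference of 0.166, where the day 5 lists gave 0.256 and the day 13 lists 0.142.

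At the loci with the largest deficit up to 8 peaks were missing from the HDAC3-YF list. Zbtb20, a zinc-finger repressor, carried 15 FLAG peaks and 7 HDAC3-YF peaks, and its counts were 20 and 18 at day 5 and 7 and 4 at day 13. Slit3, a secreted guidance cue, had 9 and 2, after 4 and 2 at day 5 and before 5 and 2 at day 13. Its 7 separate FLAG peaks all lay in the gene, and the first of them, chr11:35121483-35121682, was at its start and scored 13.1. Gas7, a growth-arrest gene, had 10 and 3, against 5 and 2 at day 13. Asap1 had 9 and 3, Niban2 10 and 4, Dnm3, a dynamin, 11 and 5, Foxp1, a forkhead factor, 15 and 9, Syn3 and Synj2 7 and 2 each, and Rptor, the mTORC1 scaffold, 11 and 6. Of these 10 genes, 8 also had fewer peaks with HDAC3-YF at day 13. Asap1 had 4 in each arm and Niban2 had 3 with FLAG and 8 with HDAC3-YF. The HDAC3-YF list of day 13 was the shorter one, with 14251 peaks against 15394. The share of all genes that were lower at day 13 is not given here, so this count has no background.

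The largest excess was 4 peaks. Arc, an immediate-early gene, carried 0 FLAG peaks and 4 HDAC3-YF peaks, all separate, with scores from 6.82 to 18.2. Nlrp12, an inflammasome regulator, had 0 and 4, a run of 4 HDAC3-YF peaks over 17.0 kb beyond its 3′ end (chr7:3201577-3218576) that 3 ESC peaks and 0 MEF peaks met. C77080 had 3 and 7, and its own run of 4, which included a displaced peak, spanned 12.8 kb of the gene. Clba1 had 3 and 7, Adrb3, Fzd7, H2ac10 and Pygb 1 and 4 each, and Arhgef12 and Bptf 2 and 5 each. H2ac10 lies in a histone gene cluster whose members H4c8, H4c6, H2bc9 and H3c7 showed the same difference because they share its peaks. At day 13 Nlrp12 had 2 and 4 peaks, while Fzd7 had 3 and 1.

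Runs of neighbouring peaks of 1 arm, at most 12 kb apart and with no peak of the other arm between them, were short. Displaced peaks could be part of a run, as at C77080 and in the run over Crabp2 and Nes. FLAG had 35 runs of 3 or more and HDAC3-YF 17, and the longest held 4 peaks in both. The 4 FLAG runs of 4 peaks covered Crabp2 and Nes, an intracellular retinoid carrier and the intermediate filament nestin, the gene Gas7, the endothelial adhesion molecule Pecam1, and a stretch 28.9 kb from Lbh. MEFs had 3, 2, 4 and 4 peaks in them and HDAC3-YF had 0 by construction. The fifth, 3 peaks in Plcl1, had 3 peaks in both arms at day 5 and 0 in MEFs and ESCs. The other HDAC3-YF runs were of 3 peaks in Ptpn14, Zmynd8 and Zfp704.

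The highest-scoring separate peaks at gene ends were those at Mob3c (chr4:115828160-115828359, score 61.8), Gmppa (45.9), Mrpl39 (43.6), Aff1 (42.0) and Gapdh (41.6) with FLAG. With HDAC3-YF they were at Patz1 (chr11:3289954-3290153, score 50.3), the interferon-induced helicase gene Ddx60 (49.4), Pdlim7 (46.5), Xpa (40.7) and the stress gene Gadd45g (40.5). All of these HDAC3-YF peaks but that at Ddx60 (337.5 kb) had a FLAG peak 1.004 to 1.879 kb away. The FLAG peaks other than that at Gapdh were 34.4 to 43.0 kb from an HDAC3-YF peak. MEFs had a peak within 1 kb at all 5 of the FLAG regions and at 3 of the HDAC3-YF regions. ESCs had one at every FLAG region but Gapdh and at every HDAC3-YF region but Gadd45g. Of all separate peaks, 47.6% with FLAG and 36.9% with HDAC3-YF had a MEF peak within 1 kb, and 26.1% and 39.5% an ESC peak.

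Fibroblast transcription factors mostly had fewer peaks with HDAC3-YF. Of 24 transcription factors of the fibroblast and mesenchymal state, 14 had fewer peaks with HDAC3-YF, 2 had more and 8 were equal, with a median of -1, where 15.0% of all genes were lower and the median was 0. The list shares its direction with MEF-biased genes in general. Of genes with at least 5 more peaks in MEFs than in ESCs 50.6% were lower, and of those with 2 to 4 more 33.6%. In the top 50% of each list by score its median was 0, with 5 lower and 0 higher. Their summed peaks were 96 in MEFs, 42 with FLAG, 25 with HDAC3-YF and 27 in ESCs. At day 5 the order was the other way, with 33 peaks with FLAG and 39 with HDAC3-YF, 3 genes lower and 7 higher. The HDAC3-YF list of day 5 was the longer one. Genes whose MEF and ESC counts were within 1 of each other also had a mean day 5 difference above 0 (0.0513). At day 9, where the FLAG list was the longer one, their mean was -0.0639. For genes with at least 5 more peaks in MEFs the means were larger at both days, 0.231 at day 5 and -0.752 at day 9. At day 13 the sums of the 24 factors were 35 and 28. Prrx2, a paired-related homeobox factor of mesenchyme, had 8 MEF peaks, 4 FLAG peaks and 1 HDAC3-YF peak. Its 3 separate FLAG peaks scored 10.1, 34.8 and 7.33, below the 41.2 of the shared one in the same list. Twist2, a driver of mesenchymal identity, had 5 in MEFs, 2 with FLAG and 0 with HDAC3-YF. Its FLAG peaks were weak, with scores of 9.61 and 8.13, and at day 13 it had 0 with FLAG and 1 with HDAC3-YF. Twist1 had 3 in MEFs, 3 with FLAG and 1 with HDAC3-YF, and at day 13 again 3 and 1. Foxc1 had 4 with FLAG and 2 with HDAC3-YF. Runx1 (5 and 4), Snai1 (2 and 1) and Zeb1 (2 and 1) differed by 1 peak, and Nfib (1 and 2) and Cebpa (0 and 1) went the other way.

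Genes of the fibroblast matrix and cytoskeleton showed the same order. Of 32 genes, 13 had fewer peaks with HDAC3-YF and 1 had more, where 15.0% of all genes were lower and 10.7% higher. In the top 50% of each list 6 were lower and 1 higher. Their peaks summed to 123 in MEFs, 60 with FLAG, 41 with HDAC3-YF and 38 in ESCs. At day 5 they summed to 48 with FLAG and 54 with HDAC3-YF, whose list was the longer one that day. At day 9 the longer list was that of FLAG. Fbn1, the microfibril protein fibrillin, had 12 in MEFs, 5 with FLAG and 2 with HDAC3-YF, after 4 and 7 at day 5. Col1a2, a collagen I chain, had 2, 3 and 0, and its 3 FLAG peaks were separate and weak, with scores of 11.4, 6.88 and 12.0. The hyaluronan receptor Cd44 had 7, 4 and 2. Fbln2 was the one with more (2 and 3). Of 11 fibroblast markers, 9 had a peak with FLAG and 6 with HDAC3-YF. They carried 20 and 8 peaks, against 46 and 4 in the longer MEF and ESC lists. At day 5 the order was the other way, with 15 peaks with FLAG and 22 with HDAC3-YF, and at day 13 they carried 14 and 8. At day 9 a set of 9 pluripotent markers carried 12 and 10 peaks, and 5 epithelial markers carried 9 and 10. The median difference of the 32 genes was 0.

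In the TGF-beta pathway 7 of 17 genes were lower and 3 higher, with Tgfb2, a ligand, at 3 and 1 and Smad6, an inhibitory SMAD, at 3 and 5. With equal numbers of peaks from both lists 4 were lower and 6 higher. In the Hippo pathway 5 of 16 were lower and 2 higher, with Tead1, the DNA-binding partner of YAP, at 6 and 3. Of 13 AP-1 genes 5 were lower and 2 higher, with Maff at 5 and 3, Bach2 at 4 and 2 and Junb at 5 and 6. All 3 medians were 0. In these 3 lists 41.2%, 31.25% and 38.5% were lower, where 15.0% of all genes and 23.1% of genes with a peak in either arm were. The shares that were higher were 17.6%, 12.5% and 15.4%, where 10.7% of all genes and 16.6% of genes with a peak were.

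Pluripotency genes were far from their ESC level in both arms, and differed little. Of 30 genes 3 were lower (10%) and 7 higher (23.3%) with HDAC3-YF, where 15.0% and 10.7% of all genes were. They had 36 and 39 peaks against 143 in ESCs, and the median was 0. Sall4, a zinc-finger factor of the pluripotency network, had 1 and 3, with its 2 extra peaks separate, and Gdf3 (2 and 3) and Tdgf1 (0 and 1) had 1 more. Tfcp2l1, Esrrb and Dppa5a had 0 in both arms, where ESCs had 9, 11 and 6. Zfp42 had 1 and 0. The direction of this list depended on weak peaks: in the top 50% of each list 4 genes were lower and 0 higher. Among the introduced factors, whose DNA the vectors also carry, Pou5f1 had 8 and 5 peaks, Sox2 1 and 1, Klf4 2 and 1 and Myc 2 and 2, and Hdac3 had 5 and 4. The Klf4 gene body peak scored 200 in both arms.

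Of 34 epithelial genes 8 were lower (23.5%) and 9 higher (26.5%), where 15.0% and 10.7% of all genes were. Of genes with a peak in either arm 23.1% were lower and 16.6% higher. In the top 50% of each list 1 epithelial gene was lower and 6 were higher. At Cdh1, the adhesion molecule E-cadherin, the FLAG library held 2 peaks and the HDAC3-YF library 4, of which 2 were shared. Esrp2, an epithelial splicing regulator, had 0 and 2 peaks with scores of 10.5 and 10.9, and Epcam had 0 and 1. Rab25 (4 and 2), Krt8 (4 and 3) and Krt18 (1 and 0) were lower. Clock and nuclear receptor genes, which include receptors that recruit NCoR and SMRT, were higher at 8 of 24 and lower at 4, with Rara, a retinoic acid receptor, at 4 and 6 and Dbp, a clock output factor, at 2 and 4. In the top 50% of each list this became 3 higher and 5 lower. Dbp and the ribosomal gene Rpl18 share these peaks.

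In the remaining lists every median was 0. Their counts stand against 15.0% lower and 10.7% higher of all genes, and 23.1% and 16.6% of genes with a peak in either arm. Genes of the co-repressor complexes were lower at 4 of 13 and higher at 2, growth genes driven by MYC were lower at 3 of 20 and higher at 4, cell cycle and senescence genes were lower at 5 of 16 and higher at 3, ribosomal protein genes were lower at 4 of 26 and higher at 1, and housekeeping genes were lower at 4 of 12 and higher at 1. Several of these counts turned with the setting. With equal numbers of peaks the co-repressor genes were 2 lower and 5 higher and the cell cycle genes 3 and 3. The MYC growth genes were 5 lower and 0 higher in the top 50% of each list, the ribosomal protein genes 2 lower and 5 higher and the housekeeping genes 2 and 2. Rrp9, a ribosomal RNA processing factor, had 3 and 0 peaks, and Eif4a1, a helicase of translation initiation, 4 and 7, a difference it shares with its neighbour Cd68 (4 and 6). Markers of other cell types carried few peaks. Endothelial genes were lower at 2 of 10 (9 and 3 peaks), with Pecam1 at 4 and 0. Primitive endoderm genes were lower at 2 of 10, neural genes at 3 of 9 and higher at 1, trophectoderm genes lower at 2 of 7, muscle genes lower at 1 of 8 and higher at 1, keratinocyte genes lower at 2 of 8 and higher at 1, and immune genes higher at 3 of 9 (10 and 15 peaks). The immune genes were 1 lower and 0 higher in the top 50% of each list and the keratinocyte genes 0 and 1, and with equal numbers the trophectoderm genes were 0 and 1. The part of such cells in the differences was not tested.

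**Figure D5:**
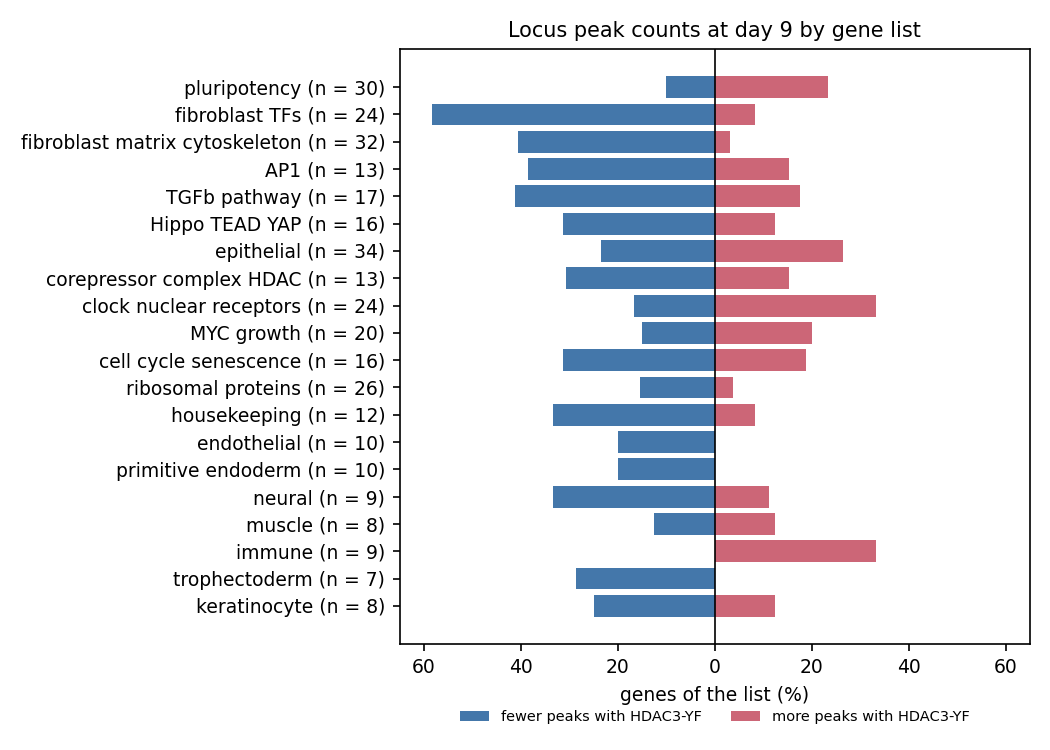
Horizontal bars give, for each of 20 gene lists, the percentage of its genes with fewer (left) or more (right) locus peaks with HDAC3-YF than with FLAG at day 9. Fibroblast transcription factors stand at 58.3% lower and 8.33% higher, where 15.0% and 10.7% of all genes were.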

How the data were processed

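ChIP-seq peak lists were used as deposited, 1 per library. Per the submitters' processing notes the tools were Bowtie2 2.2.0 and MACS 1.4 and the build mm10. Their settings are not given in the sources used here. A score column deposited by the authors has no stated scale and served only to rank peaks within a list. Peaks were overlapping at 1 bp or more, and distances are between centres. Gene positions and promoters came from RefSeq GRCm38.p6, which has the mm10 coordinates. Shares carry 95% Wilson intervals, and differences over the same regions carry 95% intervals from discordant regions. Interval functions were tested on simulated data in Python 3.11.15. The 20 gene lists (338 entries, 335 genes, all matched) and the members were chosen with earlier results of these data known. Genes were named by rule: up to 4 per list and 10 loci each way by locus difference, 5 separate peaks at gene ends and 5 runs per arm, and the introduced factors; others were named after their values were seen. Alternatives were the top 50% by score, equal numbers of peaks (15241), 50% overlap, merging within 1 kb, 2.5 kb at gene ends and 5 kb flanks. Chosen after seeing the data were the top 50% of one list against all of the other, equal numbers at the other days and distance matching there. Values of some single genes are not reported here.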

Additional observations from a re-analysis of the deposited data

Results flagged for a closer look

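In 6 groups of separate day 9 peaks the difference between the arms (HDAC3-YF minus FLAG, share of regions with a peak within 1 kb) was on opposite sides of 0 at day 5 and day 13, with both counting intervals clear of 0. With 1 library per arm and day, the difference between the days was not tested.

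At separate FLAG peaks with neither MEF nor ESC H3K27ac nearby it was 5.58 points at day 5 and -13.1 at day 13. At separate FLAG peaks away from start sites it was 2.97 and -15.4, and with equal numbers of peaks the day 5 value was -0.663 (-2.39 to 1.06). At separate HDAC3-YF peaks with MEF H3K27ac alone it was 7.50 and -8.75, where equal numbers gave 2.29 (-2.01 to 6.59) at day 5. It was 11.2 and -3.96 at those with neither, and 10.6 and -3.61 at those away from start sites, where equal numbers gave 6.80 and -0.365 (-2.10 to 1.38). At the 432 separate HDAC3-YF peaks at start sites the signs were the other way, -6.71 at day 5 and 9.26 at day 13, and with equal numbers -11.3 and 12.5.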

How the results depend on the processing

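With 1 library per arm no replicate could be left out. No paired analysis was possible because each group held 1 library. Depth is unknown, and the weak end of each list decides the counts. The values below are for peaks with no overlap in the other arm, FLAG first and HDAC3-YF second, and the cause of each shift was not tested beyond what the setting itself changes. In every setting for which these shares were recomputed, more FLAG than HDAC3-YF peaks of this kind overlapped MEF peaks, fewer overlapped ESC peaks, and the day 13 difference at FLAG peaks was below 0.

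In the top 50% of each list 1886 and 1292 peaks were left, 77.0% and 83.0% of peaks were shared, 52.4% and 56.4% lay at a gene end, 65.3% and 60.8% overlapped a MEF peak, 48.8% and 58.4% an ESC peak and 12.4% and 13.2% a co-repressor site. The day 13 differences were -7.69 and -0.310, and the day 5 difference at HDAC3-YF peaks changed sign to -0.774. With the top 50% of one list against all of the other, a comparison chosen after seeing the data, 939 and 726 peaks were left. Equal numbers of day 9 peaks gave 66.5% shared in both arms, and for FLAG 26.1% at gene ends, 37.8% at MEF and 23.7% at ESC peaks. With 50% overlap, 7976 HDAC3-YF peaks were left and 44.2% and 47.7% were shared, with 36% and 38.7% at gene ends, 48.3% and 44.3% at MEF peaks, 35.3% and 41.1% at ESC peaks and 9.48% and 9.94% at co-repressor sites. The day 13 difference at FLAG peaks was -7.34 and the day 5 difference at HDAC3-YF peaks changed sign to -0.163. With centres within 1 kb counted as shared, 3916 and 2713 were left and 76.2% and 82.2% were shared, with 18.9% and 19.1% at gene ends, 31.2% and 23.2% at MEF peaks, 16.8% and 23.9% at ESC peaks and 2.45% and 2.29% at co-repressor sites. At HDAC3-YF peaks the day 13 difference was then -1.07 and the day 5 difference 3.06. A window of 2.5 kb gave 30.8% and 32.4% at gene ends.

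Also chosen after seeing the data, equal numbers of peaks at the other day gave day 13 differences of -7.30 and -0.833 and day 5 differences of -1.65 and -0.244, the last with its sign changed. Matching by distance at the other day gave -13.97 and -6.94 at day 13 and 1.77 and 5.62 at day 5. Genes with at least 2 fewer peaks numbered 137 in the top 50%, 371 with equal numbers and 378 with 5 kb flanks, and genes with at least 2 more numbered 54, 442 and 163 in the same settings, so that equal numbers turned the order of the 2 counts. The median of the fibroblast transcription factors was 0 in the top 50% and -0.5 with equal numbers and with 5 kb flanks, and the other 19 list medians did not change.

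Among named loci whose sign changed, in the top 50% Btg2, Cd68, Eif4a1, Fzd7, Gdf3, Lats2, Rara and Ski were at -1 and Smad6 at -2, and Rb1 and Rpsa at 1. Cdx2 and Smad3 were at 1 with equal numbers and Rb1 at 1 with 5 kb flanks.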

Other observations

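Of the 2 separate HDAC3-YF peaks at the score ceiling of 200, the first lay in Gm38469 (chr15:96285332-96285531), with the nearest FLAG peak 1.21 kb away. The second lay outside protein-coding genes on chromosome 17 (chr17:39844794-39844993), with the nearest FLAG peak 3.71 kb away. Genes of other kinds and the mappability of the region were not looked at. The first had a peak within 1 kb in all 4 libraries of days 5 and 13, and the second in the day 5 FLAG library alone of those 4. The highest separate FLAG score was 73.4, at chr8:123718160-123718359, 64331 bp from the start of Rhou. They were singled out after their values were seen.

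Separate peaks were spread over the genome. Over 20 chromosomes, leaving out the Y, they made up 19.4% of FLAG peaks on chromosome 19 to 27.3% on chromosome 6, with a median of 23.9%. For HDAC3-YF the share ran from 14.6% on chromosome 19 to 21.2% on chromosome 13, with a median of 17.6%.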
